A study of Mus musculus with 10 samples.

Results

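The subunits of the vacuolar proton pump (V-ATPase) and the lysosomal cathepsins were examined in knee cartilage of wild-type mice and of mice lacking the microRNA gene Mir324. The members were the protein-coding genes whose symbols begin with Atp6v or Atp6ap, or consist of Cts and 1 further letter or digit. Atp6v0d2 and Ctsk, which mark osteoclasts, and Ctsg, a serine protease of neutrophil granules, were left out. This gave 45 of the 35705 genes with transcripts in the table, 25 of them with pump symbols and 20 cathepsins, and 31 of the 45 reached the mean of 1 TPM required of the 13841 genes tested. TPM is a transcript abundance per transcript length that is forced to the same total in every library, so that levels can be compared between genes but read depth is unknown. The question was which subunits and cathepsins varied with osteoclast content, read from Acp5, the gene of tartrate-resistant acid phosphatase, and which differed between genotypes.

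Each library held total RNA from the dissected cap of the medial knee of 1 mouse, with 5 wild-type control mice and 5 miR-324-null mice and no treatment. Strain, age, sex and batch, and how the null allele was made, were not given in the sources used here. The series' title names osteoblast and osteoclast differentiation and function as the processes under study. The level of Mir324 was not analysed, which leaves the genotype labels unchecked.

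The labelled cell type, chondrocyte, was only a part of what the libraries held. All 6 chondrocyte markers were in the table, with 4 at a mean of 1 TPM or more, and summed to between 257 and 938 TPM per mouse. The 7 neutrophil markers summed to between 54585 and 111430 TPM and the 7 erythroid markers to between 112640 and 263631 TPM. The 8 osteoclast markers summed to between 1438 and 3252 TPM in wild-type mice and to between 944 and 1940.3 TPM in null mice. The 8 macrophage markers summed to between 778 and 1140.5 TPM in wild-type and to between 769 and 951 TPM in null mice. The group means were 2359 and 1269.8 TPM for the osteoclast sum and 871 and 865 TPM for the macrophage sum. Of the osteoclast sum, Acp5 held 933 and 428 TPM and Ctsk 632 and 251 TPM, wild-type and null means in that order. The rest lay in the other markers of the set, Mmp9 among them, and whether it came from osteoclasts was not tested. In such bulk tissue, fewer cells of a type and less RNA per cell cannot be told apart. Wild-type replicate 1 stood apart on the first principal component (26.7% of the variance), at -54.8 where the other mice lay between -12.1 and 30.1, and counts are given without it below.

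The V-ATPase is a rotary motor that uses ATP to move protons across a membrane. Its V1 sector (subunits A to H) splits ATP in the cytosol, and its V0 sector (a, c, the c-related c″, d and e) carries the protons through the membrane, with several copies of A, B, E, G and c in each pump. Every cell uses the pump to acidify lysosomes and endosomes, where most cathepsins work as acid proteases. The osteoclast also places it in the ruffled border, with the a3 subunit (Tcirg1) and the d2 subunit (Atp6v0d2), to dissolve bone mineral, and secretes cathepsin K to cut the collagen.

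The lost microRNA has a pair of mature strands, shown because a gene with a site for either seed (bases 2 to 8, in capitals) could be repressed by it in wild-type mice. The sequences are from RefSeq (GRCm38.p6), plus strand of chromosome 11, at chr11:70012060-70012082 for the 5p and chr11:70012095-70012114 for the 3p strand.
mmu-miR-324-5p: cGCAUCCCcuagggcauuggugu
mmu-miR-324-3p: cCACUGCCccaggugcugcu
The longest annotated 3′ UTR of each gene (GENCODE M21) was searched for the 7 letters complementary to each seed, GGGATGC and GGCAGTG. The Atp6v0a2 gene is on chromosome 5 and Ctsb on chromosome 14. The site for the 5p strand was in 1 of 31 members tested (3.23%) and in 8.50% of 12586 protein-coding genes tested, and the site for the 3p strand in 1 of 31 members and in 15.4% of those genes. The members are shown with the match in capitals; the first is Atp6v0a2, an a subunit of the Golgi and endosomes, the second the protease Ctsb.
Atp6v0a2, 5p site: cgtcctctcagGGGATGCagctctttggt
Ctsb, 3p site: cagaaggctgaGGCAGTGggatcaccatt
Atp6v0a2 differed by -0.0077 and Ctsb by 0.16 between null and wild-type mice on the log2(TPM + 1) scale (SE 0.17 and 0.15), neither beyond its spread. The other 29 members tested held neither 7-letter match in that window.

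Many lysosomal genes carry near their start the E-box CACGTG, the core of the element through which TFEB and its relatives TFE3 and MITF act, and MITF is also a regulator of osteoclast genes. RefSeq promoters (GRCm38.p6, 250 bases before to 50 after the start) were at hand for 22 of the 31 members tested. CACGTG, which reads the same on both strands, was in the promoters of 8 of these 22 genes (36.4%). The share was 11.6% over the 9987 tested genes with an entry and 8.09% over all 27025 genes with an entry. The longer TCACGTG, searched on both strands and containing the first motif, was in 6 of the 22 (27.3%). It was in 6.92% of the tested genes with an entry and in 4.29% of all genes with an entry. The windows below give the gene strand, with CACGTG and, where present, a T before or an A after it in capitals.
Atp6v1a, chr16:44139373-44139402, minus strand: ttttttttaaaTCACGTGAtaggcttaacg
Atp6v0b, chr4:117887348-117887377, minus strand: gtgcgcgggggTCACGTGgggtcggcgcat
Atp6v0b, chr4:117887330-117887359, minus strand: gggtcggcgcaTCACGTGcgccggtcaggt
Atp6v0d1, chr8:105566050-105566079, minus strand: ccctactgcggTCACGTGAgacgcggtgcg
Atp6v0e, chr17:26676387-26676416, plus strand: tagcgcgccgaTCACGTGAgcctctgttga
Ctsa, chr2:164833749-164833778, plus strand: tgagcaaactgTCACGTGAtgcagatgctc
Ctsa, chr2:164833766-164833795, plus strand: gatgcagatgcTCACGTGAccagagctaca
Ctsd, chr7:142387908-142387937, minus strand: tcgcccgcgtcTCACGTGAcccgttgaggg
Ctsf, chr19:4855074-4855103, plus strand: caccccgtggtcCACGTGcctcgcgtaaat
Ctsl, chr13:64370739-64370768, minus strand: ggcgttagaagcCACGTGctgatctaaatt
The motif began 131 bases before the start of Atp6v1a, 36 and 18 before that of Atp6v0b, 12 before that of Ctsa and 98 before that of Ctsd, where a second copy lay at 245. The slopes of the 8 genes on Acp5 (defined below) ran from -0.059 for Ctsd and -0.050 for Atp6v0d1 to 0.28 for Ctsa and 0.30 for Ctsf. The slope of Ctsd was smaller than its SE. Both negative slopes turned positive with Col1a1 as a second term, so a difference in direction between these genes is not shown.

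**Figure D1:**
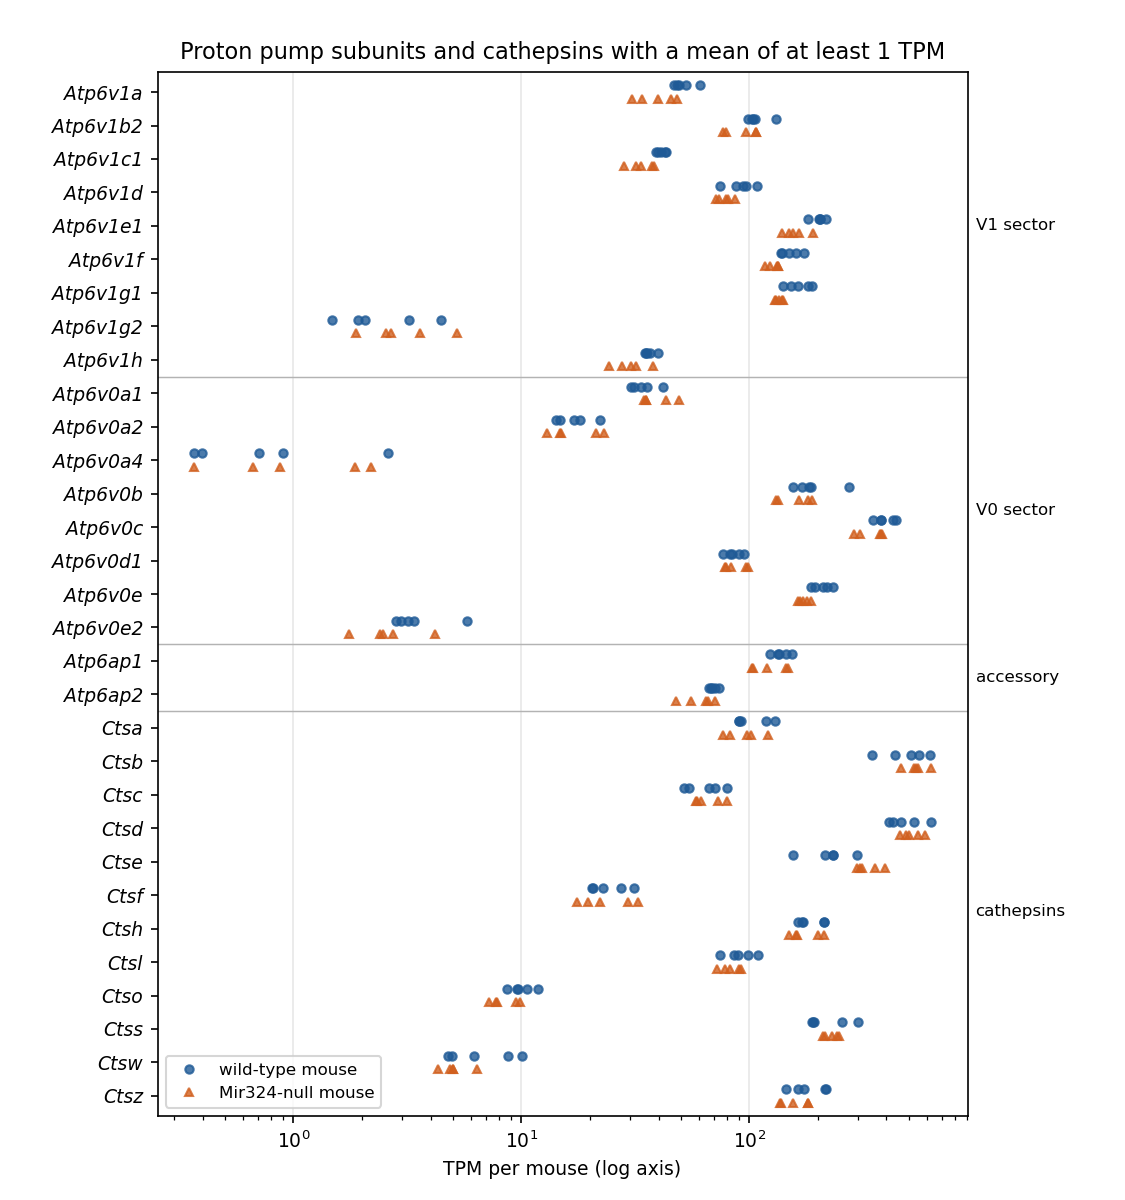
TPM per mouse on a log axis for the 31 members with a mean of at least 1 TPM, 5 wild-type mice (circles) and 5 Mir324-null mice (triangles) a gene, grouped by sector. The c subunit Atp6v0c and the cathepsins Ctsb and Ctsd lie highest, and the a4 subunit Atp6v0a4 lies lowest, between 0.368 and 2.59 TPM.

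Across the 10 mice the pump members of highest TPM were widely expressed subunits. This leaves aside Tcirg1 and Atp6v0d2, the a3 and d2 isoforms that osteoclasts use, which were not members. Which cells the Tcirg1 TPM came from was not tested. Of the summed TPM of subunits a and d, Tcirg1 held 50.4 to 72.2% and Atp6v0d2 19.7 to 42.1%, as described below. The highest subunit was Atp6v0c, the proton-carrying c subunit, at a mean of 370.3 TPM, followed by the V0 subunit e Atp6v0e (191), the stalk subunit E Atp6v1e1 (181) and the c″ subunit Atp6v0b (177). The catalytic subunit A, Atp6v1a, averaged 45.5 TPM and its partner B, Atp6v1b2, 101 TPM. The lowest of the main V1 isoforms were H (Atp6v1h, 33.4 TPM) and C (Atp6v1c1, 37.4 TPM), the pair that controls assembly of the sectors. Among cathepsins, the cysteine protease Ctsb averaged 517 TPM and the aspartic protease Ctsd 504 TPM, followed by Ctse (279.7), an aspartic protease of blood and immune cells, and Ctss (227), which processes antigens. Ctsw, the cathepsin of cytotoxic lymphocytes, was the lowest of the 12 cathepsins that reached the filter, at 6.04 TPM. The plot of values by mouse shows these levels.

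The 14 members below the filter were isoforms and cathepsins of other tissues. Atp6v1b1, the B subunit of kidney intercalated cells, Atp6v1e2 and Atp6v1fnb, a gene beside Atp6v1f, were listed at 0 in every library. Atp6v1g3 reached at most 0.0863 TPM, Atp6v1c2 1.57 TPM and Atp6ap1l 0.214 TPM. The 8 cathepsins of the mouse placenta (Cts3, Cts6, Cts7, Cts8, Ctsj, Ctsm, Ctsq and Ctsr) were listed at 0 except Cts8, which reached 0.0422 TPM. Atp6v0c shares sequence with the pseudogenes Atp6v0c-ps1 and Atp6v0c-ps2, which were left out, so its value is uncertain. Exons of 7 members overlap those of another gene at 1 TPM or more, among them Atp6v1g2 with Nfkbil1, Ctsw with Fibp and Ctsz with Nelfcd on the opposite strand, Atp6v0a4 with D630045J12Rik on the same strand, and whether strand was used is not given in the sources used here. For 5 members over 50% of the TPM lay in transcripts not annotated as coding, namely Atp6v1d (81.9%), Atp6v0e2 (59.9%), Ctsh (58.9%), Ctsb (55.3%) and Ctsf (51.3%).

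Between genotypes, 7 of the 9 V1 subunits tested and the V0 subunit e were lower in null mice at an unadjusted p under 0.05, and Ctse was higher, but no member passed the adjusted threshold. In limma with Benjamini-Hochberg adjustment over all genes tested, 0 of 31 members had an adjusted p under 0.05, as had 0.0% of the 13841 genes. At an unadjusted p under 0.05, 8 of 31 members were lower in null mice, against 7.3% of all genes, and 1 of 31 was higher, against 4.28%. In 3 members every null mouse lay below every wild-type mouse, against 1.06% of all genes, and in 1 every null mouse lay above, against 0.881%. The median difference was -0.20 over the 31 members and -0.27 over the 9 V1 subunits on the log2(TPM + 1) scale, against -0.045 over all genes. The osteoclast markers Acp5, Ctsk and Atp6v0d2 also had lower values in null mice, with differences of -1.15, -1.37 and -0.79 (SE 0.36, 0.39 and 0.19). None of them passed adjustment (limma adjusted p = 0.319, 0.308 and 0.277). Tcirg1, the a3 subunit that osteoclasts use, did not go with these markers and differed by -0.040 (SE 0.26). Erythroid markers were higher (a mean sum of 208428 against 156921 TPM). The 8 osteoblast and osteocyte markers were lower as well (a mean sum of 2939 TPM in null against 5980.0 TPM in wild-type mice), with Col1a1 at -0.94 (SE 0.27, limma adjusted p = 0.308), and so were the 4 adipocyte markers (121 against 183 TPM). The part of these cell types in the members' differences was not tested.

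**Figure D2:**
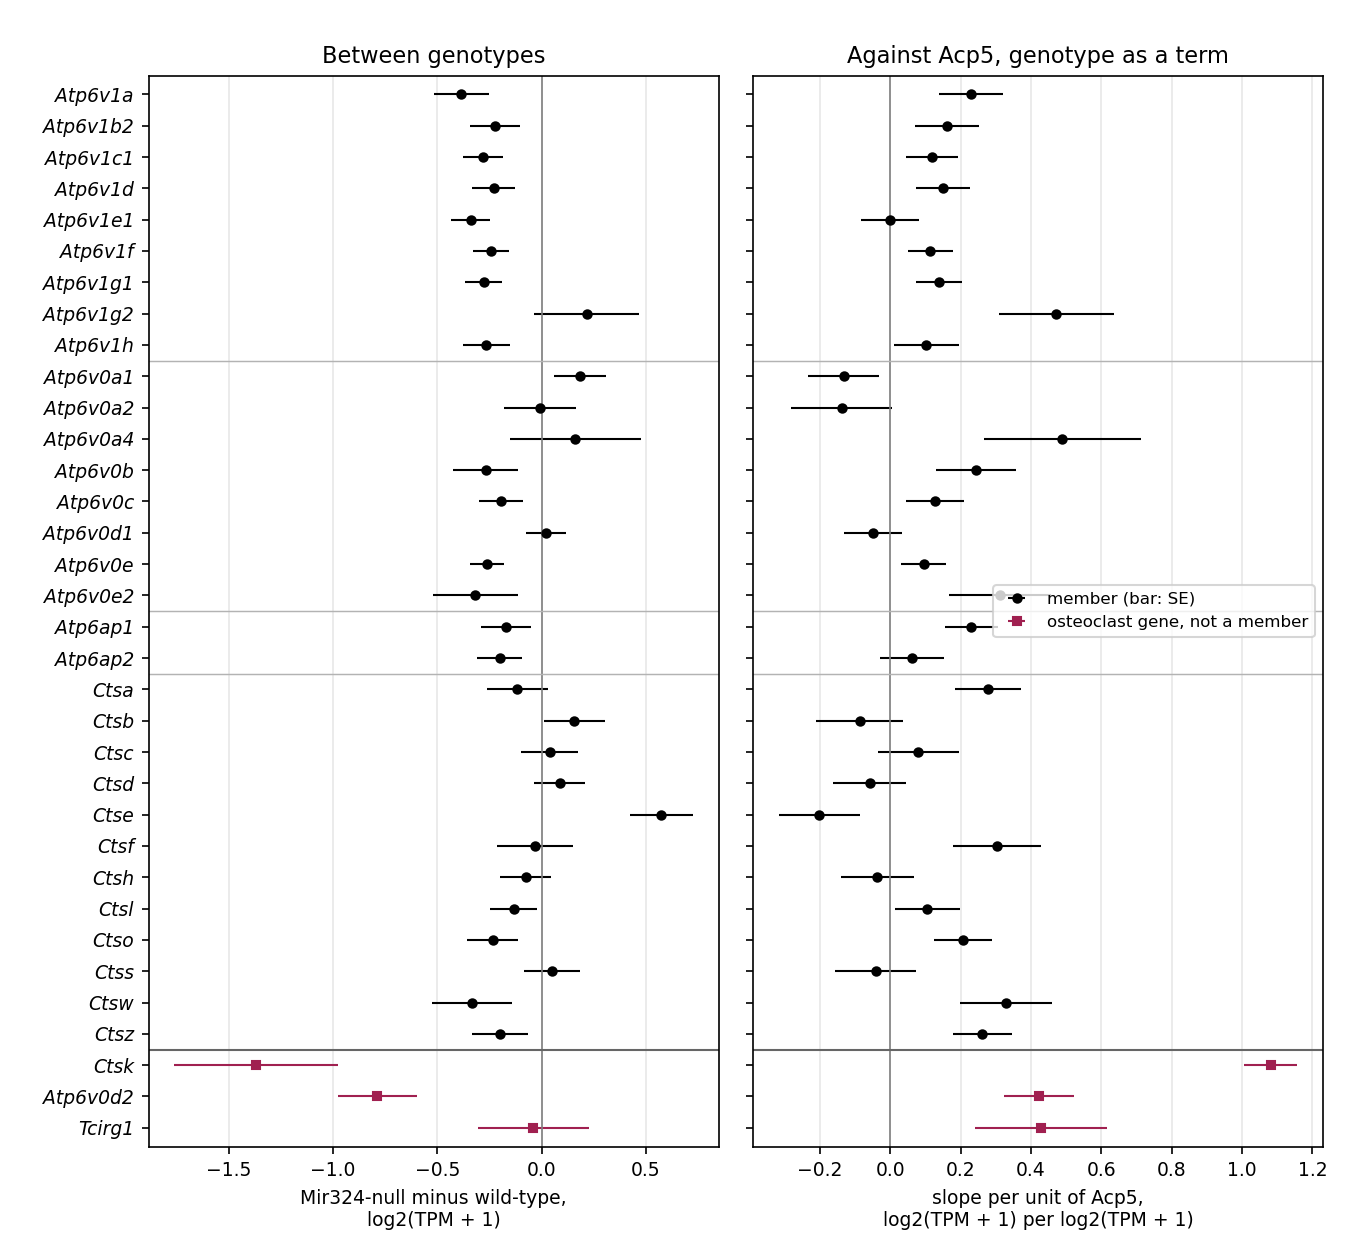
Left, difference between null and wild-type means on the log2(TPM + 1) scale; right, slope on Acp5 in the fit with a genotype term, both as estimates with SE over 10 mice. 8 of the 9 V1 subunits lie below 0 on the left, Ctse lies at 0.57, and on the right Ctsk (1.08) lies beyond every member (largest 0.49).

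The V1 sector held most of the lower values. Atp6v1e1 (ENSMUSG00000019210, chromosome 6, 120794305 to 120822793), the E subunit of the outer stalks, had 204, 218, 181, 201 and 205 TPM in wild-type replicates 1 to 5 and 191, 165, 155, 139 and 149 TPM in null replicates 1 to 5. The null mice lay low except replicate 1, which lay within the wild-type range, and the means were 202 ± 13.4 TPM in the wild type and 159.7 ± 19.9 TPM in the nulls (SD, n = 5), a difference of -0.34 (SE 0.095, limma p = 0.00389, adjusted 0.297, exact permutation p = 0.0159). Atp6v1g1 (ENSMUSG00000039105, chromosome 4, 63544772 to 63550750), the common G subunit of the same stalks, had 188, 182, 140.2, 164 and 152 TPM in wild-type replicates 1 to 5 and 129.7, 139, 140.2, 136 and 132 TPM in null replicates 1 to 5. Wild-type replicate 3 and null replicate 3 were nearly equal and the groups did not overlap (difference -0.28, SE 0.090, limma adjusted p = 0.325, exact permutation p = 0.00794, the smallest this design allows). Atp6v1c1 (ENSMUSG00000022295, chromosome 15, 38661933 to 38692446), the C subunit that joins V1 to V0, had 41.0, 43.3, 38.8, 42.6 and 39.8 TPM in wild-type replicates 1 to 5 and 33.7, 38.0, 37.3, 31.8 and 28.2 TPM in null replicates 1 to 5. Its groups did not overlap either (difference -0.28, SE 0.10, limma adjusted p = 0.338, exact permutation p = 0.00794).

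The other V1 subunits, and the members described below beyond those of the naming rule, were chosen for description after their values were seen. Atp6v1f, the F subunit of the central shaft, was the third member without overlap, between 138 and 173 TPM in wild-type and between 117 and 134 TPM in null mice. The catalytic Atp6v1a had 52.6, 60.7, 48.3, 49.2 and 46.5 TPM in wild-type replicates 1 to 5 and 39.9, 45.5, 48.2, 33.9 and 30.4 TPM in null replicates 1 to 5. Only null replicate 3 reached the wild-type range, and the difference was -0.38 (SE 0.13, limma adjusted p = 0.338). Atp6v1h and Atp6v1d differed by -0.27 and -0.23 with an unadjusted limma p of 0.0369 and 0.0472; most Atp6v1d TPM lay in a transcript annotated with a retained intron (81.1%), and over its coding transcripts alone it differed by -0.20. Atp6v1b2 differed by -0.22 (SE 0.12), within its spread. The exception in sign was the low Atp6v1g2, a G isoform best known from neurons, which was 0.22 higher (SE 0.25) and overlapped widely.

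In the V0 sector 1 of 8 subunits was lower at an unadjusted p under 0.05. Atp6v0e (ENSMUSG00000015575, chromosome 17, 26663231 to 26699647) had 233, 219.6, 195, 210.4 and 187 TPM in wild-type replicates 1 to 5 and 179, 187, 171, 167 and 164 TPM in null replicates 1 to 5. Null replicate 2 lay just above wild-type replicate 5, the lowest of its group, and the difference was -0.26 (SE 0.081, limma adjusted p = 0.319, exact permutation p = 0.0159). The ring subunits Atp6v0c and Atp6v0b differed by -0.20 and -0.27 (SE 0.11 and 0.16) and did not pass. Atp6v0d1, the common d subunit, stood at 85.8 ± 7.13 TPM in the wild type and 87.3 ± 10.0 TPM in the nulls (SD, n = 5; difference 0.021), and Atp6v0a1 at 34.5 ± 4.66 TPM in the wild type and 39.4 ± 6.45 TPM in the nulls (difference 0.18, SE 0.13). The accessory proteins Atp6ap1 and Atp6ap2, which help assemble the pump, differed by -0.17 and -0.20 (SE 0.12 and 0.11).

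Among the 12 cathepsins tested, Ctse alone had an unadjusted p under 0.05. Ctse (ENSMUSG00000004552, chromosome 1, 131638306 to 131675505) had 156, 215, 296, 234 and 232 TPM in wild-type replicates 1 to 5 and 312, 305, 297, 355 and 395 TPM in null replicates 1 to 5. Every null mouse lay above every wild-type mouse, and the means were 227 ± 50.3 TPM in the wild type and 333 ± 41.5 TPM in the nulls (SD, n = 5; difference 0.57, SE 0.15, limma p = 0.00274, adjusted 0.287, exact permutation p = 0.00794). The gap was narrow, with wild-type replicate 3 and null replicate 3 within 1 TPM of each other. The erythroid gene Alas2, which starts haem synthesis, was higher in null mice by 0.44 as well (SE 0.16, limma adjusted p = 0.355); its part in the Ctse difference was not tested. The remaining 11 cathepsins lay between -0.33 (Ctsw, SE 0.19) and 0.16 (Ctsb, SE 0.15), with Ctsd at 0.087 and Ctsl, a cysteine protease of most lysosomes, at -0.13. Over protein-coding transcripts alone, 3 more cathepsins were lower at an unadjusted p under 0.05: Ctsf, at -0.34 in place of -0.032, Ctsw at -0.46 and Ctso at -0.26. Atp6v1d then had no such p, so that 10 members were lower, against 8.58% of all genes.

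The direction of the V1 subunits held under each scaling tried, and the number called varied. Per-library rescaling without the haemoglobin genes moved the median difference of all genes from -0.045 to 0.036 and the members' from -0.20 to -0.11, with 8 of 9 V1 subunits still below 0. It left 5 lower members (Atp6v0e, Atp6v1a, Atp6v1c1, Atp6v1e1 and Atp6v1g1) and Ctse higher, while the calls over all genes went from 1011 lower and 592 higher to 577 lower and 1216 higher. Without wild-type replicate 1, 7 members were lower, against 4.48% of all genes, and Ctse was higher, against 3.81%. With Acp5 added as a term, so that genotypes were compared at equal Acp5, 1 member was lower, against 1.0% of all genes, and 1 higher, against 2.19%. The lower one was Atp6v1e1, at -0.34 as before (SE 0.14), and the higher one Atp6v1g2, at 0.76 (SE 0.27). Neither passed adjustment in limma, and this fit was added after the data were seen. At equal Acp5 the median difference was -0.12 over the V1 subunits, with 8 of 9 below 0, and 0.0022 over the members, against 0.023 over all genes. Ctse was then at 0.34 (SE 0.19).

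Acp5 varied 5.71-fold between mice. It stood at 1226, 1319, 659, 1008 and 451 TPM in wild-type replicates 1 to 5 and 231, 493, 790.2, 304 and 321 TPM in null replicates 1 to 5, high in wild-type replicates 1, 2 and 4, with null replicates 2 and 3 inside the wild-type range. The slope of a member on Acp5, both as log2(TPM + 1) and with genotype as a term, is the difference in the member per log2 unit of Acp5 among mice of 1 genotype. For scale, Ctsk had a slope of 1.08 (SE 0.075, limma adjusted p = 0.000348) and Atp6v0d2 of 0.42 (SE 0.10, adjusted 0.0998).

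No member passed the adjusted threshold in that fit, and 8 had an unadjusted p under 0.05. In limma 0 of 31 members had an adjusted p under 0.05, against 0.448% of all genes (62 of 13840). At an unadjusted p under 0.05, 8 members had a positive slope, against 11.2% of all genes, and 0 a negative one, against 1.84%. These were Ctsz, Atp6ap1, Ctsa, Atp6v1g2, Atp6v1a, Ctso, Ctsw and Ctsf, that is 5 of 12 cathepsins, 2 of 9 V1 subunits, 1 of 2 accessory proteins and 0 of 8 V0 subunits. Ctsz, an exopeptidase of macrophages and other cells, had a slope of 0.26 (SE 0.084, limma adjusted p = 0.217), and Ctsa, a carboxypeptidase that shields other lysosomal enzymes, of 0.28 (SE 0.094, adjusted 0.240). Atp6ap1 had a slope of 0.23 (SE 0.076, adjusted 0.229). The median slope was 0.12 over the members and 0.056 over all genes. By group it was 0.14 over the V1 subunits (8 of 9 above 0), 0.11 over the V0 subunits (5 of 8) and 0.092 over the cathepsins (7 of 12). The count rested on null replicate 3, the null mouse with the most Acp5: without it, 1 member (Ctsz) had an unadjusted p under 0.05, against 6.37% of all genes, while the members' median slope was 0.14. Without null replicate 1, the mouse lowest in Acp5, the count was 12, against 10.8% of all genes, and without wild-type replicate 1 it was 6, against 8.89%. Scaling moved the split of all calls, with 1555 positive and 255 negative slopes with TPM as deposited and 881 positive and 691 negative after quantile normalization, when 5 members were positive and 0 negative.

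The members with the largest slopes were low in TPM. Atp6v0a4 (ENSMUSG00000038600, chromosome 6, 38048483 to 38124586), the a4 subunit of kidney and inner ear, had 2.59, 0.398, 0.368, 0.898 and 0.708 TPM in wild-type replicates 1 to 5 and 0.664, 1.86, 2.19, 0.875 and 0.368 TPM in null replicates 1 to 5, which is close to the filter. Wild-type replicate 1 stood apart at the top and both groups spanned the same range (slope 0.49, SE 0.22, limma adjusted p = 0.389). Atp6v1g2 (ENSMUSG00000024403, chromosome 17, 35233660 to 35238767) had 4.44, 3.23, 2.06, 1.47 and 1.92 TPM in wild-type replicates 1 to 5 and 2.56, 3.58, 5.21, 2.67 and 1.88 TPM in null replicates 1 to 5. Null replicate 3, the highest in Acp5 of its group, was the highest of all mice (slope 0.47, SE 0.16, limma adjusted p = 0.249). Ctsw (ENSMUSG00000024910, chromosome 19, 5465043 to 5468507) had 10.1, 8.76, 6.23, 4.75 and 4.94 TPM in wild-type replicates 1 to 5 and 4.32, 4.87, 6.41, 5.01 and 5.02 TPM in null replicates 1 to 5, with wild-type replicates 1 and 2, the pair highest in Acp5, above all others (slope 0.33, SE 0.13, limma adjusted p = 0.317). The part of lymphocytes in the Ctsw values was not tested; the 5 T and NK cell markers summed to between 83.5 and 156 TPM in wild-type and between 69.5 and 128 TPM in null mice.

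At the other end stood Ctse and the a1 and a2 subunits. The slope of Ctse was -0.20 (SE 0.12, limma adjusted p = 0.496). Atp6v0a2 (ENSMUSG00000038023, chromosome 5, 124628576 to 124724455) had 17.1, 14.8, 22.2, 14.2 and 18.2 TPM in wild-type replicates 1 to 5 and 21.4, 23.0, 14.8, 13.0 and 14.9 TPM in null replicates 1 to 5 (slope -0.14, SE 0.14), with no order by Acp5, and its slope was 0.066 over its coding transcripts alone. Atp6v0a1 (ENSMUSG00000019302, chromosome 11, 101009452 to 101063719), the a subunit of most cells and of synaptic vesicles, had 35.4, 33.5, 42.0, 30.4 and 31.1 TPM in wild-type replicates 1 to 5 and 49.1, 34.7, 35.1, 43.0 and 35.2 TPM in null replicates 1 to 5. Null replicate 1, the mouse lowest in Acp5, was the highest in Atp6v0a1 (slope -0.13, SE 0.10). Ctsb and Ctsd, the most abundant cathepsins, and Ctss had slopes smaller than their SE, at -0.059 for Ctsd, -0.088 for Ctsb and -0.042 for Ctss.

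**Figure D3:**
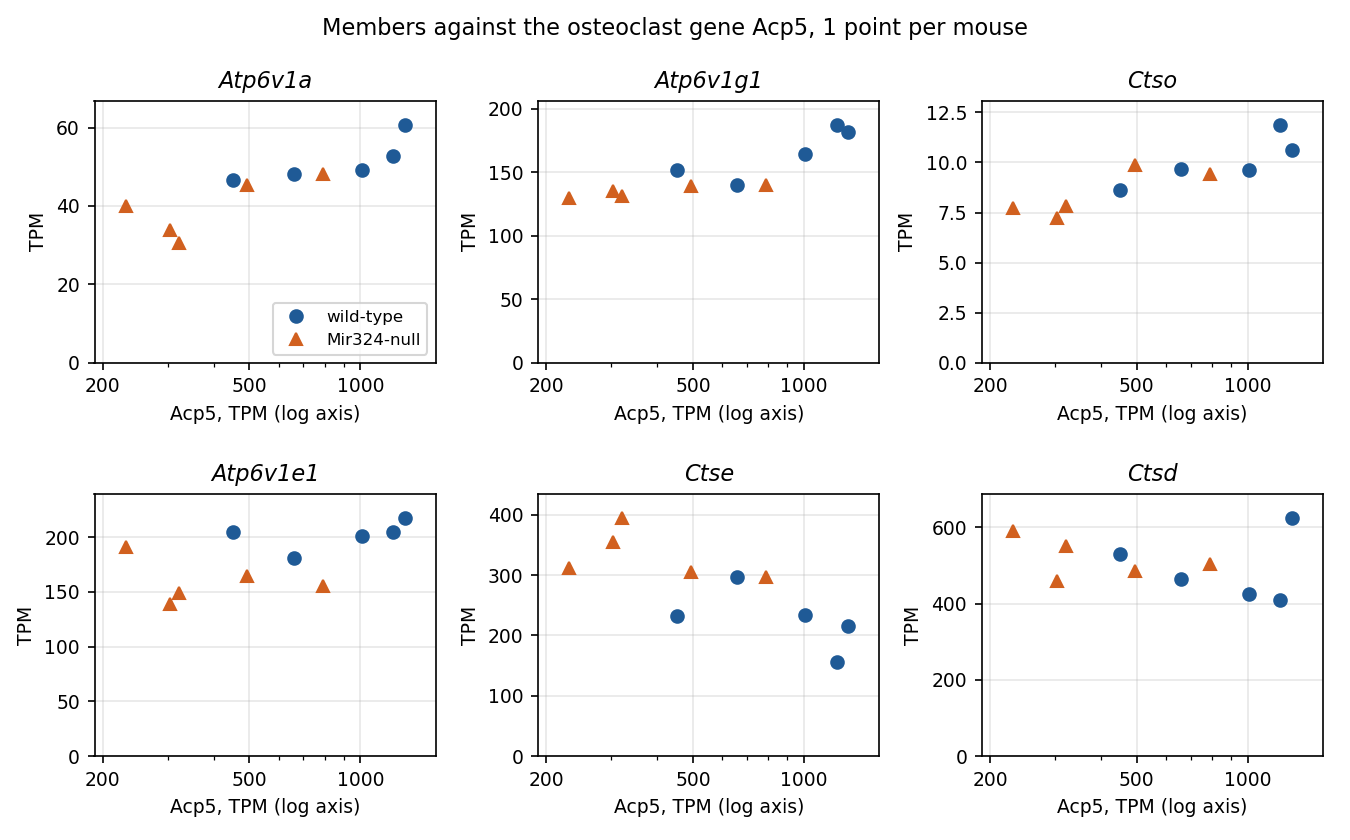
TPM of 6 members (from 0, linear) against Acp5 TPM (log axis), 1 point per mouse, circles wild-type and triangles Mir324-null. Atp6v1a, Atp6v1g1 and Ctso lie higher in mice with more Acp5, Ctse lies lower, Ctsd shows no rise, and Atp6v1e1 is lower in 4 of 5 null mice than in any wild-type mouse and has no order by Acp5 within the genotypes.

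Over all 10 mice with no genotype term, more members went with Acp5. Pearson's r had a permutation p that passed adjustment over all genes in 4 members with positive r, against 3.56% of all genes. These were Ctso (r = 0.90, permutation p = 0.00056, adjusted 0.0309), a widely expressed cysteine protease, Atp6v1g1 (r = 0.87, permutation p = 0.00083, adjusted 0.0359), Atp6v1a (r = 0.85, permutation p = 0.00102, adjusted 0.0377) and Atp6v1f (r = 0.84, permutation p = 0.00186, adjusted 0.0480). Spearman's rho was 0.87, 0.89, 0.93 and 0.87 in that order, with adjusted permutation p of 0.0637, 0.0551, 0.0497 and 0.0637. Without the 2 mice farthest from the Acp5 median (wild-type replicate 2 and null replicate 1), r was 0.89, 0.80, 0.86 and 0.89. In limma without a genotype term, 4 members had a positive slope at an adjusted p under 0.05 (Atp6v1a, Atp6v1g1, Ctso and Ctsz), against 5.12% of all genes, and 1 a negative one (Ctse), against 0.975%. These pooled values take in the difference between genotypes, in Acp5 as in the members. Within genotypes, as deviations from the genotype means, r had an exact permutation p under 0.05 in 9 members, against 10.5% of all genes, and 0 passed adjustment. Ctso stood highest (r = 0.83, exact permutation p = 0.00688, adjusted 0.237; rho = 0.81, exact permutation p = 0.00979; r = 0.84 without those 2 mice), followed by Atp6ap1 (r = 0.79) and Ctsz (r = 0.77).

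The isoform that makes up a subunit can be compared within a library, where the scaling of the library cancels. Shares of summed TPM were taken for the 4 subunits with more than 1 measured isoform, with 7 shares tested and adjusted together. In subunit d, Atp6v0d1 was the main isoform and Atp6v0d2, the osteoclast isoform left out of the members, the rest. Atp6v0d2 held 38.0, 42.1, 32.7, 38.6 and 25.0% in wild-type replicates 1 to 5 and 20.3, 19.7, 30.6, 21.9 and 24.8% in null replicates 1 to 5. All wild-type mice except replicate 5 lay above all null mice, with means of 35.3% ± 6.65 and 23.5% ± 4.47 (SD, n = 5; exact permutation p = 0.0159, adjusted 0.111). Over all mice, with no genotype term, the share went with Acp5 (r = 0.92, permutation p = 0.00036, adjusted 0.00252). Its rho was 0.85 (permutation p = 0.00263, adjusted 0.0184), and r was 0.88 without the 2 farthest mice. These values take in the difference between genotypes, in Acp5 as in the share, and the share was not tested within genotypes. The correlations of the other shares were taken in the same way. Atp6v0d1 itself stood at 84.4, 90.4, 82.5, 76.7 and 95.0 TPM in wild-type replicates 1 to 5 and 99.0, 97.1, 82.8, 78.1 and 79.4 TPM in null replicates 1 to 5, with wide overlap and r = -0.23 with Acp5 (permutation p = 0.514). Atp6v0d2 itself, the other part of the share, differed by -0.79 between genotypes (SE 0.19, limma adjusted p = 0.277). It had r = 0.92 with Acp5 over all mice, so the share is not a result separate from this osteoclast marker.

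**Figure D4:**
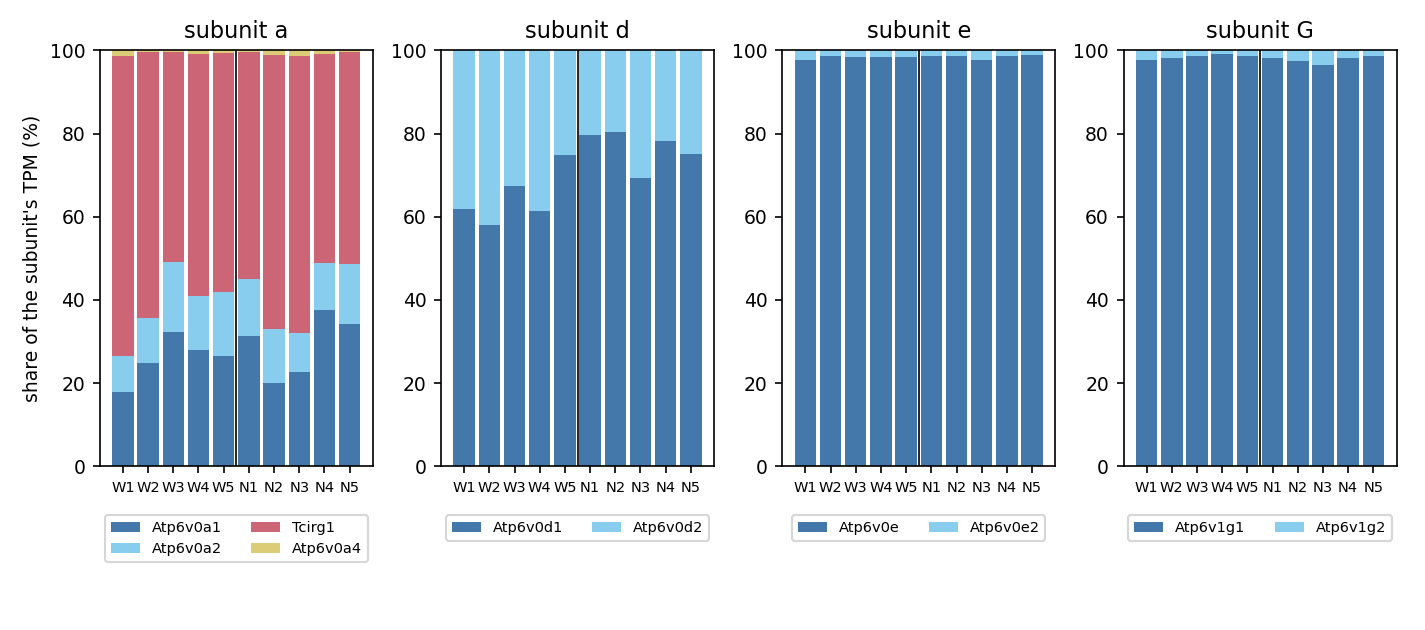
Share of each isoform in the summed TPM of its subunit (percent, stacked bars from 0 to 100), for wild-type mice W1 to W5 and Mir324-null mice N1 to N5. Atp6v0d2 takes 25.0 to 42.1% of subunit d in wild-type and 19.7 to 30.6% in null mice, and Atp6v1g1 takes at least 96.4% of subunit G.

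Subunit a was shared between more isoforms. Tcirg1 (a3) held between 50.4 and 72.2%, Atp6v0a1 between 17.9 and 37.5%, Atp6v0a2 between 8.62 and 17.0%, and Atp6v0a4 at most 1.41%. Tcirg1 had 143, 87.0, 66.0, 63.4 and 67.6 TPM in wild-type replicates 1 to 5 and 85.6, 115, 103, 57.9 and 52.4 TPM in null replicates 1 to 5, highest in wild-type replicate 1. The Tcirg1 share had r = 0.67 with Acp5 (permutation p = 0.0373, adjusted 0.107; rho = 0.67, permutation p = 0.0391, adjusted 0.126) and the Atp6v0a1 share r = -0.65 (permutation p = 0.0458, adjusted 0.107; rho = -0.64, permutation p = 0.0542, adjusted 0.126), and neither passed adjustment. Between genotypes the Tcirg1 share averaged 60.5% ± 8.13 and 57.6% ± 7.91 (SD, n = 5; exact permutation p = 0.571). In subunit e, Atp6v0e2 had 5.80, 2.98, 3.38, 3.20 and 2.82 TPM in wild-type replicates 1 to 5 and 2.48, 2.74, 4.17, 2.41 and 1.75 TPM in null replicates 1 to 5 and held between 1.05 and 2.43%, with wild-type replicate 1 highest. In subunit G, Atp6v1g2 held between 0.889 and 3.58%. In none of the 7 shares did the genotypes differ at an adjusted p under 0.05 (exact permutation test), and 1 of 7, that of Atp6v0d2, had one at an unadjusted p under 0.05.

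Members were also set against genes of other cell types, as deviations from the genotype means, to describe which of them varied with which. The 5 genes beside Acp5 were Csf1r, the CSF1 receptor of macrophages and osteoclast precursors, Cd68, a lysosomal protein of macrophages and osteoclasts, S100a8 of neutrophils, Alas2 of red cell precursors and Col1a1 of osteoblasts. With none of the 6 genes did a member pass adjustment over all genes in the exact permutation test, so the values below are descriptions at an unadjusted p, and Acp5 and Csf1r themselves went together (r = 0.82, exact permutation p = 0.0106, adjusted 0.259). With Csf1r, 16 of 31 members had a positive r at an unadjusted p under 0.05, against 13.0% of all genes, and 1 a negative one, against 1.57%. The 16 took in 8 of 9 V1 subunits, all but Atp6v1e1. In 27 of 31 members r was higher with Csf1r than with Acp5. All genes moved the same way, with a median r of 0.32 with Csf1r and 0.18 with Acp5, against 0.68 and 0.59 over the members. The share of all genes with the higher r to Csf1r was not counted, and the difference between the correlations was not tested. The highest was Ctsa (r = 0.98, exact permutation p = 0.000347, adjusted 0.262; rho = 0.98, exact permutation p = 0.000347; r = 0.96 without wild-type replicates 1 and 2, the farthest from the Csf1r median). Ctsz (r = 0.95), Atp6v1a (r = 0.92) and Atp6ap1 (r = 0.91) came next. With Csf1r beside Acp5 in the limma fit, 0 members had a positive Acp5 slope at an unadjusted p under 0.05 in place of 8, against 3.27% of all genes, and 4 had a negative one (Atp6v0d1, Atp6v1e1, Ctsh and Ctss), against 8.09%. With Cd68 the count was 1 (Ctsa), against 1.42% of all genes.

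**Figure D5:**
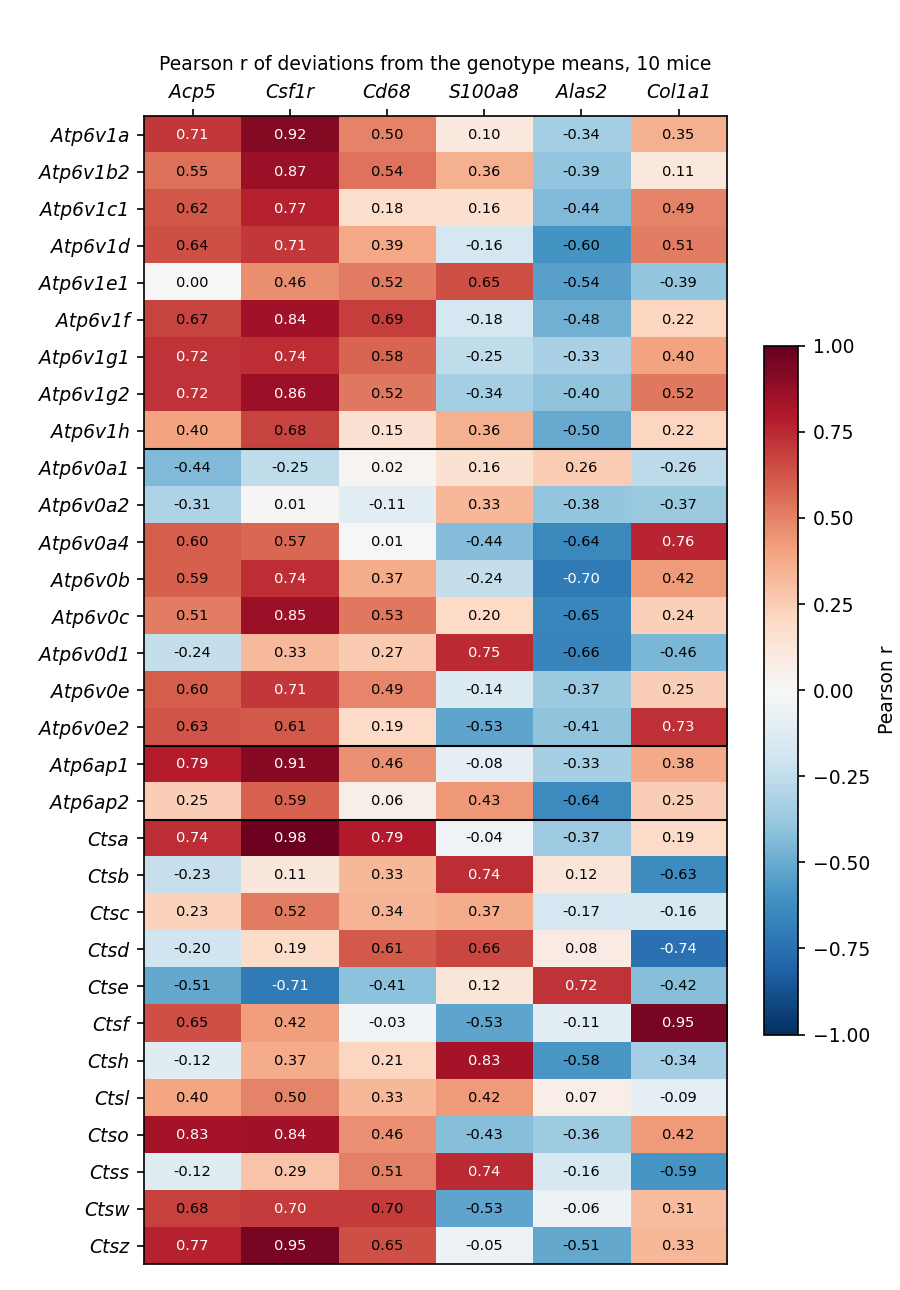
Pearson's r between the members and 6 genes of named cell types, as deviations from the genotype means over 10 mice, on a scale from -1 (blue) to 1 (red). Most V1 subunits, Ctsa, Ctso and Ctsz are red under Acp5 and Csf1r, Ctsb, Ctsd, Ctsh, Ctss and Atp6v0d1 under S100a8, Ctsf under Col1a1 and Ctse under Alas2.

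The abundant cathepsins Ctsb and Ctss, and Ctsh, had higher r with S100a8 than with Acp5. With S100a8, 4 members had a positive r at an unadjusted p under 0.05, against 5.79% of all genes: Ctsh (r = 0.83, exact permutation p = 0.00951; rho = 0.71, exact permutation p = 0.0383), an aminopeptidase, Atp6v0d1 (r = 0.75), Ctss (r = 0.74) and Ctsb (r = 0.74). Without wild-type replicate 5 and null replicate 1, the farthest from the S100a8 median, r was 0.77 for Ctsh and 0.49 for Atp6v0d1. With Alas2, 1 member had a positive r, against 1.18% of all genes, and 4 a negative one, against 16.8%. The positive one was Ctse (r = 0.72, exact permutation p = 0.0260; rho = 0.76, exact permutation p = 0.0223; r = 0.78 without wild-type replicates 1 and 5). With Col1a1, 3 members had a positive r, against 9.23% of all genes, and 3 a negative one (Ctsb, Ctsd and Ctss), against 2.13%. Ctsf, a cysteine protease, stood highest (r = 0.95, exact permutation p = 0.00132; rho = 0.92, exact permutation p = 0.00347; r = 0.93 without null replicates 1 and 5), and Atp6v0a4 (r = 0.76) and Atp6v0e2 (r = 0.73) were the others. TPM of all genes in a library are forced to a common total, which such correlations share.

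Genes that work with the pump and the cathepsins were counted in the same fits, and 0 of them passed the adjusted threshold between genotypes. At an unadjusted p under 0.05, the shares over all genes were 7.3% lower, 4.28% higher, 11.2% with a positive and 1.84% with a negative slope, as above. Of the 11 listed genes of osteoclast acid secretion and bone resorption, 5 were lower at an unadjusted p under 0.05 (Acp5, Ctsk, Atp6v0d2, Snx10 and Mmp9). The carbonic anhydrase Car2, which red cells also hold, was the 1 that was higher (difference 0.50). Tcirg1, the a3 subunit in this list, differed by -0.040 (SE 0.26). Besides Acp5 itself, 7 of 10 genes of the list had a positive Acp5 slope at an unadjusted p under 0.05, and Ctsk passed adjustment. Of the 11 factors that assemble or regulate the V-ATPase, 0 were lower and 1 higher (Ncoa7, 0.26), and 0 had a slope at that level, with a median of 0.017. Of 18 other lysosomal genes tested, 6 were lower and 0 higher, with 15 below 0 and a median difference of -0.14, and 5 had a positive slope at that level (Gaa, Hexa, Naglu, Npc2 and Scpep1). The transcription factors Tfeb and Tfe3 differed by 0.017 and 0.043 between genotypes, and Mitf, at 2.91 TPM, had a slope of 0.33 (SE 0.13, limma adjusted p = 0.303). Of 9 cathepsin inhibitors tested, the cystatins Cstb and Cst3 differed by -0.52 and -0.42 at an unadjusted p under 0.05 (limma adjusted p = 0.277 and 0.427), also had positive slopes (0.24 and 0.38), and Stfa3, a stefin of neutrophils, had a negative one (-0.69, adjusted 0.196).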

How the data were processed

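Abundances were deposited by the authors as 1 table of TPM per transcript for 10 libraries, with each column summing to 1000000; kallisto, DESeq2 and GRCh38, a human build, are named in the submitters' processing notes, without versions. The build and annotation of the index were not given in the sources used here. Of 116912 transcripts, 115440 matched GENCODE M21 (mouse GRCm38) by identifier without version; the others held 0.275 to 0.356% of the TPM. TPM were summed per gene, and 0 columns belonged to other samples.

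Groups came from the labels, 5 mice each. Genes averaging 1 TPM or more were tested on log2(TPM + 1) with limma 3.58.1 (R 4.3.3, trended variance, two-sided, Benjamini-Hochberg adjustment over all genes tested, threshold 0.05): null against wild-type, and Acp5 with genotype as a term. Correlations used 100000 permutations, or 14400 exact ones within genotype; single genes and shares used the exact permutation test of 5 against 5, whose smallest p is 0.00794 (Python 3.11.15, SciPy 1.17.1). Only the spread between these mice is measured. The code was tested on simulated data.

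Values per mouse were given for the 5 members with the smallest genotype p, the 3 largest and the 3 smallest Acp5 slopes, and the 2 highest isoforms of each subunit with several. The members and lists were chosen with earlier results of these data known. Alternatives were a pseudocount of 0.1, no filter, a mean of at least 5 TPM, 3 other scalings, coding transcripts only, each mouse left out, a replicate block, other osteoclast genes in place of Acp5, and second terms; those with Csf1r and Col1a1 were compared as markers of other cells. Some genes of the list of other lysosomal genes are not reported singly here.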

Additional observations from a re-analysis of the deposited data

Results flagged for a closer look

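In 4 of 62 groups of 5 mice examined, 1 mouse lay far from the other 4 of its genotype, by Dixon's test at the 95% level; chance gives this in about 1 in 20 groups. All 4 were wild-type groups. The c″ subunit Atp6v0b stood at 274 TPM in wild-type replicate 1, against a range of 156 to 186 TPM in the rest of its group. Atp6v0a4 stood at 2.59 TPM in the same mouse, against 0.368 to 0.898 TPM, and Atp6v0e2 at 5.80 TPM, against 2.82 to 3.38 TPM. The B subunit Atp6v1b2 stood at 131 TPM in wild-type replicate 2, against 98.4 to 106 TPM. Replicate 1, which holds 3 of the 4, is also the mouse that stood apart on the first principal component.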

How the results depend on the processing

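The count of 0 members with an adjusted p under 0.05 between genotypes held in every alternative fitted, and in the Acp5 fit in all but those with no genotype term (limma 5, permutation test of Pearson's r 4). Members lower in null mice at an unadjusted p under 0.05 numbered 5 after rescaling without the haemoglobin genes, against 4.17% of all genes. They numbered 10 with protein-coding transcripts only, against 8.58%, and 1 with Acp5 as a term, against 1.0%. Leaving out each mouse in turn gave 0 to 1 genes between genotypes, and 2 (without wild-type replicate 5, and without null replicate 3) to 92 (without wild-type replicate 2) genes with an Acp5 slope at an adjusted p under 0.05. It gave 1 (without null replicate 3, against 6.37% of all genes) to 12 (without null replicate 1, against 10.8%) members with a positive slope at an unadjusted p under 0.05. The genes with an Acp5 slope, 62 as reported, numbered 13 with no filter on low values, 13 with quantile normalization, 29 with median ratio scaling, 105 without the haemoglobin genes, 139 with protein-coding transcripts only, 37 with Ctsk in place of Acp5, 0 with Atp6v0d2, 30 with the mean of 5 osteoclast genes, 3 with Col1a1 and 6 with Csf1r as a second term, 843 with no genotype term, 555 in the permutation test of Pearson's r and 0 in the exact permutation test within genotype. Members with a positive slope, 8 as reported, numbered 5 with quantile normalization, against 6.37% of all genes, and 3 with Atp6v0d2 in place of Acp5, against 4.57%. They numbered 3 with Col1a1 as a second term, against 4.83%, and 0 with Csf1r, against 3.27%. With no genotype term they numbered 16, against 17.1%. The permutation test also gave 16, and its share over all genes is not given here. Where values changed, the cause was not tested.

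With Csf1r as a second term the median slope of all genes went from 0.056 to -0.058, and that of the members from 0.12 to -0.014. The slopes of 13 members turned sign in this fit: Atp6v1h -0.12, Atp6v1f -0.0054, Atp6v1b2 -0.14, Atp6v1c1 -0.0054, Atp6v1a -0.046, Atp6v0b -0.014, Atp6v0c -0.14, Atp6ap2 -0.18, Ctsa -0.073, Ctsz -0.0098, Ctsc -0.20, Ctsl -0.0090 and Ctse 0.077. With Col1a1 as a second term the slope was 0.13 for Ctss, 0.080 for Atp6v1e1, 0.13 for Ctsd, 0.015 for Atp6v0d1, 0.041 for Ctsh and 0.095 for Ctsb. With Atp6v0d2 in place of Acp5 it was 0.061 for Ctss, 0.10 for Atp6v1e1, 0.11 for Ctsd and 0.030 for Ctsb. The slope of Atp6v1e1 was 0.14 with no genotype term, 0.0060 with the mean of 5 osteoclast genes and 0.0014 over coding transcripts. The slope of Ctsh was 0.013 with no genotype term, that of Atp6ap2 -0.012 with median ratio scaling and that of Atp6v0a2 0.066 over coding transcripts, where its share had r = 0.092. Between genotypes, Atp6v0a2 was at 0.043, 0.038 and 0.078 with median ratio scaling, quantile normalization and without the haemoglobin genes, Ctsf at 0.020 and 0.055 in the first and the last, and Ctsh at 0.013 in the last and 0.0062 over coding transcripts. With 1 mouse left out, the genotype difference ran from -0.0068 to 0.16 for Ctss, -0.11 to 0.084 for Atp6v0a2, -0.034 to 0.12 for Ctsc, -0.026 to 0.059 for Atp6v0d1 and -0.14 to 0.068 for Ctsf, the Acp5 slope from -0.15 to 0.036 for Ctss, -0.028 to 0.084 for Atp6v1e1 and -0.090 to 0.037 for Ctsh, the share difference from -5.37 to 0.055 for Tcirg1, -0.371 to 0.025 for Atp6v0e2, -1.67 to 0.434 for Atp6v0a2 and -0.0084 to 0.304 for Atp6v0a4 points and the r of the Atp6v1g2 share with Acp5 from -0.074 to 0.28.

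The replicate numbers gave no sign of pairing the mice: deviations of same-numbered mice correlated between -0.14 and 0.056 and 0 mice correlated best with their own number. As litter and batch are unknown, these values cannot exclude a pairing. With a replicate block, 7 members were lower in null mice at an unadjusted p under 0.05, against 5.12% of all genes, and 10 genes had an Acp5 slope at an adjusted p under 0.05. In that fit 2 members (Ctsf and Ctsz) had a positive slope at an unadjusted p under 0.05, against 9.0% of all genes. The slopes of Atp6v1h (-0.018), Ctsc (-0.065) and Atp6ap2 (-0.036) turned sign. Read depth is unknown, so the precision of the low members Atp6v0a4, Atp6v1g2 and Atp6v0e2 could not be given.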
